A study of Neurospora crassa with 3 samples.

Results

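In the fungus Neurospora crassa, 87 genes carried more reads on the strand opposite to the gene in set-2 H3G34R and set-2 ash1(Y888F) than in H3G34R. The first and second of these genotypes carry a deletion of set-2 by their labels. They were chosen by those antisense reads. Antisense CPM is the number of antisense reads of a gene per 1000000 sense reads in genes of the same library, and a gene was taken when the lowest of the 4 values in the genotypes labelled set-2 was at least 2 CPM and at least 3 times the higher of the 2 H3G34R values. The choice was made among the 7286 of 9730 genes whose reads counted on both strands together equalled the sum of the strands in all 6 libraries. The 87 genes are 1.19% of those 7286, and 27 other genes met the same rule the other way round, with both H3G34R values above all 4 values of the genotypes labelled set-2. The antisense difference from H3G34R is therefore given below as a description, with no test.

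Most eukaryotic genes are read on 1 strand by RNA polymerase II, and reads on the opposite strand can come from transcription that starts inside the gene, behind it or in a neighbour. SET-2 methylates lysine 36 of histone H3 along genes as the polymerase passes, and ASH1 is the other enzyme of Neurospora that methylates this residue. In the yeast Saccharomyces cerevisiae, Set2 and the histone deacetylase complex Rpd3S, which binds this mark, keep down cryptic and antisense transcription inside genes.

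Poly-A RNA was measured in 3 genotypes with 2 sequenced libraries each. The genotype set-2 H3G34R carries a deletion of set-2 together with the glycine-to-arginine change of histone H3 that the label calls H3G34R, and both of its libraries came from a single strain, N6777. The genotype set-2 ash1(Y888F) carries a deletion of set-2 together with the changed ASH1 that the label calls ash1(Y888F), and its libraries came from strains N6266 and N6267. The genotype H3G34R carries the histone change with set-2 intact by its label, and its libraries came from strains N5247 and N5248. All were grown for 18 h at 32 °C with shaking in Vogel's liquid medium and are labelled as mycelia from germinated conidia. No genotype with the set-2 deletion alone and no wild-type library was used here. The set-2 deletion was thus compared only in strains that carry a second change, and strain and genotype cannot be told apart. By the labels, set-2 ash1(Y888F) differs from H3G34R in ASH1 and in the histone change as well as in set-2. Nothing says that the libraries of N6777 came from separate cultures, so p-values here cover the spread between libraries, in part perhaps of technical origin. The gene set-2 (NCU00269), which the deletion should remove, had 31.8 and 31.2 sense CPM in set-2 H3G34R, 20.3 and 16.4 CPM in set-2 ash1(Y888F), and 34.2 and 25.6 CPM in H3G34R. Sense reads of set-2 thus stood in all 6 libraries, the counts do not show the deletion, and the genotypes are called here by their labels.

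Sense reads in genes numbered 7.52 to 9.83 M (M for 1000000 reads) and antisense reads 0.295 to 0.341 M per library. The 87 genes took 2.91% and 2.73% of all antisense reads in the set-2 H3G34R libraries, 1.52% and 1.54% in the set-2 ash1(Y888F) libraries, and 0.198% and 0.214% in the H3G34R libraries. Their summed antisense reads came to 1054 and 977 CPM in set-2 H3G34R, 581 and 605 CPM in set-2 ash1(Y888F), and 62.9 and 69.6 CPM in H3G34R. The other genes that could have met the rule summed to 7246 and 7233 CPM in set-2 H3G34R, 8889 and 8755 CPM in set-2 ash1(Y888F), and 7232 and 7752 CPM in H3G34R. Antisense reads at those other genes were thus highest in the set-2 ash1(Y888F) libraries, while those of the 87 genes were highest in the set-2 H3G34R libraries. Among 232 genes with at least 500 sense CPM on average, the median antisense share of a gene's reads was 0.235% and 0.240% in set-2 H3G34R, 0.648% and 0.599% in set-2 ash1(Y888F), and 0.331% and 0.364% in H3G34R. The frequency gene frq (NCU02265), which has a known antisense transcript, had 36.8 and 40.6 antisense CPM in set-2 H3G34R, 41.9 and 39.0 in set-2 ash1(Y888F), and 54.6 and 48.1 in H3G34R. It was read on the antisense strand in all 6 libraries and is not among the 87 genes.

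Across the 87 genes the lowest of the 4 antisense values in the genotypes labelled set-2 ran from 2.02 to 29.8 CPM, with a median of 3.72 CPM. It was under 5 CPM in 59 genes and at least 10 CPM in 10. The higher H3G34R value ran from 0 to 8.95 CPM, with a median of 0.637 CPM. The lower of these read numbers in a library labelled set-2 was at least 16 reads and had a median of 31, and the higher read number in an H3G34R library had a median of 6 and reached 88. With the H3G34R value set to no less than 0.319 CPM, which is 3 reads in the shallower H3G34R library, the ratio of the lowest value to it ran from 3.01 to 29.8, with a median of 5.20, and was at least 10 in 16 genes. In 14 genes the higher H3G34R value was under that floor, and NCU01840 was at 0. The ratio of genotype means, with the H3G34R mean likewise set to no less than 3 reads a library, had a median of 11.2 for set-2 H3G34R and 8.66 for set-2 ash1(Y888F), and 19 genes had an H3G34R mean under that floor. One gene, NCU01840, had no antisense read in either H3G34R library, and 4 genes had none in 1 of them.

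Near the minimum, ada-4 and pex3 lay just inside at 2.02 CPM each and NCU00142 at 2.09 CPM, and NCU12126 at 1.99 CPM, NCU06448 at 1.91 CPM and NCU00226 at 1.90 CPM lay just outside. Near the ratio of 3, NCU09485 at 3.01, NCU01505 at 3.10 and ada-4 at 3.17 lay inside, and NCU05603 at 2.96, NCU08681 at 2.94 and NCU03220 at 2.86 lay outside. These steps are small beside the counting error at 16 to 31 reads.

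The 12 genes with the highest value in the lowest of the 4 libraries were NCU08764, NCU09894, NCU08070, NCU02929, NCU08594, stk-28, NCU02809, NCU05994, NCU03506, NCU02787, NCU10069 and mbp3. Their read numbers were not divided by gene length, so they are compared between libraries and not between genes. NCU08764 had 51.6 and 29.8 antisense CPM in set-2 H3G34R, 31.9 and 32.3 CPM in set-2 ash1(Y888F), and 6.59 and 8.95 CPM in H3G34R. Its values in the genotypes labelled set-2 overlapped each other and all lay above H3G34R. NCU09894 had 46.4 and 36.4 antisense CPM in set-2 H3G34R, 26.5 and 25.5 CPM in set-2 ash1(Y888F), and 1.28 and 2.34 CPM in H3G34R. NCU08070 had 28.8 and 25.3 antisense CPM in set-2 H3G34R, 23.97 and 24.5 CPM in set-2 ash1(Y888F), and 3.82 and 6.21 CPM in H3G34R. NCU09894 stood highest in both set-2 H3G34R libraries, whereas the 4 values of NCU08070 in the genotypes labelled set-2 lay close together. The gene stk-28 (NCU04279), named as a serine/threonine protein kinase, had 29.5 and 25.5 antisense CPM in set-2 H3G34R, 13.4 and 13.3 CPM in set-2 ash1(Y888F), and 0.319 and 0.916 CPM in H3G34R. Its 3 genotypes did not overlap, and H3G34R held 3 and 9 of its antisense reads.

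Antisense reads of NCU02929 came to 18.3 and 13.8 CPM in set-2 H3G34R, 14.4 and 15.7 CPM in set-2 ash1(Y888F), and 3.19 and 2.24 CPM in H3G34R. For NCU02809 they came to 14.5 and 14.0 CPM in set-2 H3G34R, 12.6 and 15.7 CPM in set-2 ash1(Y888F), and 1.28 and 1.63 CPM in H3G34R. For NCU02787 they came to 10.2 and 10.1 CPM in set-2 H3G34R, 10.9 and 11.2 CPM in set-2 ash1(Y888F), and 0.744 and 1.02 CPM in H3G34R. In NCU02929 and NCU02809 the values of the genotypes labelled set-2 overlapped, and in NCU02787 those of set-2 ash1(Y888F) were slightly the higher. NCU05994 had 16.0 and 15.8 antisense CPM in set-2 H3G34R, 10.9 and 13.6 CPM in set-2 ash1(Y888F), and 0.956 and 0.509 CPM in H3G34R. NCU03506 had 16.3 and 21.2 antisense CPM in set-2 H3G34R, 11.04 and 10.8 CPM in set-2 ash1(Y888F), and 1.49 and 1.02 CPM in H3G34R. NCU10069 had 15.0 and 14.2 antisense CPM in set-2 H3G34R, 9.73 and 10.5 CPM in set-2 ash1(Y888F), and 2.12 and 2.65 CPM in H3G34R. In these genes both set-2 H3G34R values were the highest and both H3G34R values the lowest. NCU08594 had 24.1 and 20.4 antisense CPM in set-2 H3G34R, 17.8 and 13.7 CPM in set-2 ash1(Y888F), and 0.425 and 0.712 CPM in H3G34R. The gene mbp3 (NCU09815) had 41.2 and 35.96 antisense CPM in set-2 H3G34R, 9.73 and 12.6 CPM in set-2 ash1(Y888F), and 1.17 and 1.12 CPM in H3G34R. In both genes the 3 genotypes did not overlap, and the genotypes labelled set-2 lay farther apart in mbp3.

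**Figure D1:**
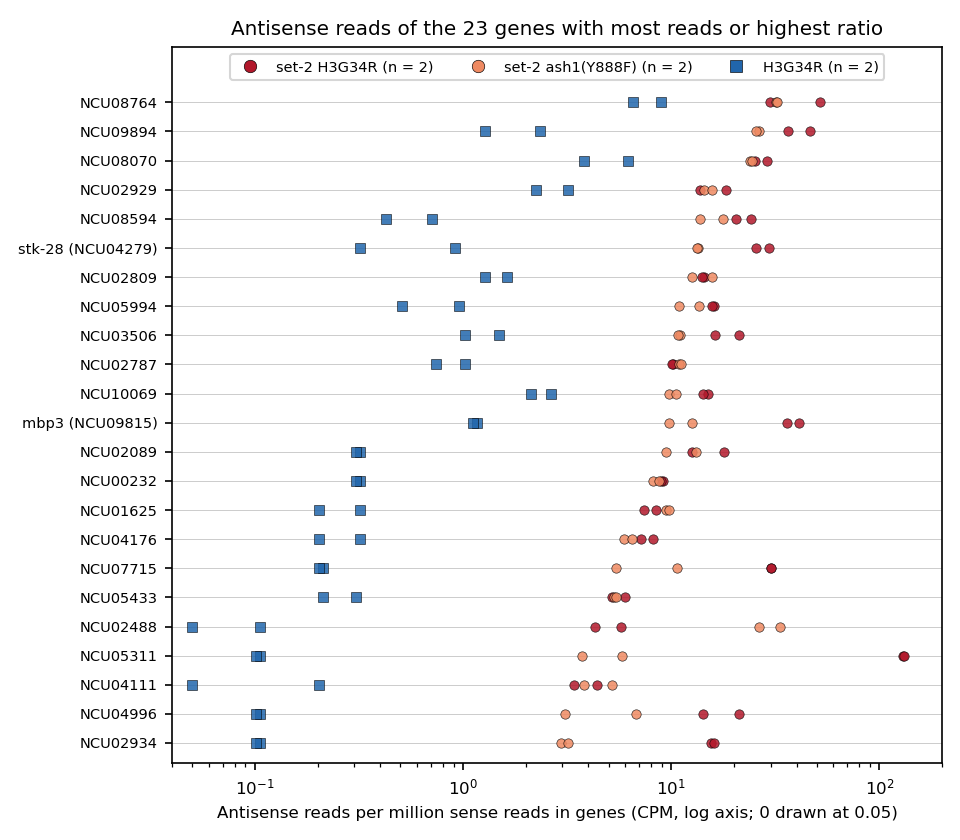
Antisense CPM (log axis) of the 23 genes with most antisense reads or the highest ratio to the H3G34R value as read, 1 point per library, circles for the genotypes labelled set-2 and squares for H3G34R, with a value of 0 drawn at 0.05. The set-2 H3G34R points of NCU05311 lie at 130 and 132 CPM, far to the right of its set-2 ash1(Y888F) points at 5.81 and 3.72 CPM.

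The 12 genes with the highest ratio to the H3G34R value as read, with only a value of 0 in both H3G34R libraries replaced by 3 reads, were NCU02488, NCU05311, NCU02089, NCU04996, NCU02934, NCU00232, NCU07715, NCU01625, NCU08594, NCU04176, NCU05433 and NCU04111. In 7 of them the H3G34R value was under 0.319 CPM, and with that floor NCU02934, NCU04996 and NCU04111 left the 12 and stk-28, NCU05043 and NCU05994 entered. The order of these ratios thus rests largely on 1 to 3 reads in H3G34R, and with the floor the highest was that of NCU02089. Antisense reads of NCU02488 came to 5.74 and 4.29 CPM in set-2 H3G34R and 33.3 and 26.3 CPM in set-2 ash1(Y888F), against 0.106 and 0 CPM in H3G34R. NCU05311 had 130 and 132 antisense CPM in set-2 H3G34R and 5.81 and 3.72 CPM in set-2 ash1(Y888F), against 0.106 and 0.102 CPM in H3G34R. The H3G34R libraries held at most 1 antisense read of either gene, and the genotype with most reads was set-2 ash1(Y888F) for NCU02488 and set-2 H3G34R for NCU05311. NCU04996 had 21.1 and 14.3 antisense CPM in set-2 H3G34R, 3.09 and 6.78 CPM in set-2 ash1(Y888F), and 0.106 and 0.102 CPM in H3G34R. NCU02934 had 15.5 and 16.0 antisense CPM in set-2 H3G34R, 2.97 and 3.19 CPM in set-2 ash1(Y888F), and 0.106 and 0.102 CPM in H3G34R. NCU07715 had 30.2 and 30.0 antisense CPM in set-2 H3G34R, 5.46 and 10.6 CPM in set-2 ash1(Y888F), and 0.212 and 0.203 CPM in H3G34R. These 3 genes were highest in set-2 H3G34R and had 1 or 2 reads per H3G34R library.

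The remaining genes of high ratio differed less between the genotypes labelled set-2. NCU02089 had 12.5 and 17.9 antisense CPM in set-2 H3G34R, 9.49 and 13.2 CPM in set-2 ash1(Y888F), and 0.319 and 0.305 CPM in H3G34R. NCU00232 had 9.14 and 8.93 antisense CPM in set-2 H3G34R, 8.19 and 8.78 CPM in set-2 ash1(Y888F), and 0.319 and 0.305 CPM in H3G34R. NCU01625 had 8.50 and 7.42 antisense CPM in set-2 H3G34R, 9.49 and 9.71 CPM in set-2 ash1(Y888F), and 0.319 and 0.203 CPM in H3G34R. The 3 genes had 2 or 3 antisense reads in each H3G34R library, and NCU01625 stood higher in set-2 ash1(Y888F). NCU04176, NCU05433 and NCU04111 had between 3.40 and 8.18 antisense CPM in the libraries labelled set-2 and at most 0.319 CPM in H3G34R.

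The antisense share, the antisense part of a gene's reads on both strands, had a median over the 87 genes of 16.8% and 16.3% in set-2 H3G34R, 12.2% and 12.3% in set-2 ash1(Y888F), and 0.909% and 0.947% in H3G34R. In 83 of the 87 genes the lowest share in the libraries labelled set-2 was above both H3G34R shares, where this held in 15.2% of the 7286 genes. The rule, which kept the antisense values of these genotypes apart, largely sets this count. The shares of NCU02455, NCU02929, NCU05043 and NCU08447 overlapped between those genotypes, and their sense reads, given below, were also higher in the genotypes labelled set-2. Antisense reads outnumbered sense reads in both set-2 H3G34R libraries in 10 of the 87 genes, in both set-2 ash1(Y888F) libraries in 5, and in both H3G34R libraries in 2. The 5 genes with more antisense than sense reads in all 4 libraries labelled set-2 were NCU08764, NCU08594, NCU02488, NCU01505 and mbp3, and among all 7286 genes 235 had this.

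**Figure D2:**
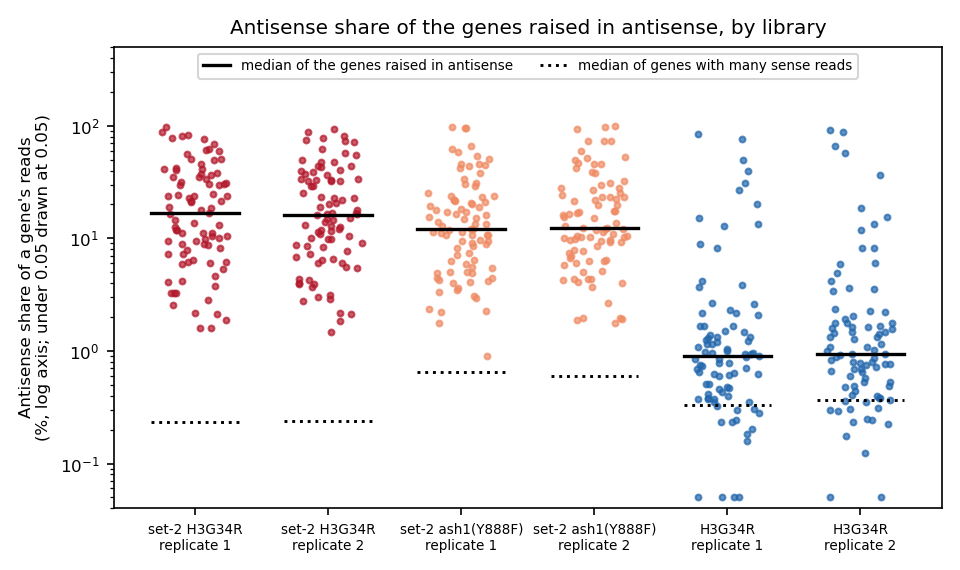
Antisense share of a gene's reads (%, log axis) for each of the 87 genes in each library, with the median as a solid line and, as a dotted line, the median of 232 genes with many sense reads. The solid lines stand at 16.8% and 16.3% in set-2 H3G34R, 12.2% and 12.3% in set-2 ash1(Y888F), and 0.909% and 0.947% in H3G34R.

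In NCU08594 antisense reads were 68.8% and 71.0% of the gene's reads in set-2 H3G34R, 65.8% and 73.6% in set-2 ash1(Y888F), and 1.39% and 3.63% in H3G34R. In mbp3 they were 80.5% and 77.7% in set-2 H3G34R, 50.9% and 59.4% in set-2 ash1(Y888F), and 12.8% and 11.8% in H3G34R. In NCU02488 they were 88.5% and 80.4% in set-2 H3G34R, 95.9% and 97.1% in set-2 ash1(Y888F), and 2.63% and 0% in H3G34R. These genes were read mostly on the sense strand in H3G34R and mostly on the antisense strand in the genotypes labelled set-2. NCU08764 was read mostly on the antisense strand in all genotypes, with shares of 97.2% and 93.5% in set-2 H3G34R, 96.4% and 94.2% in set-2 ash1(Y888F), and 84.9% and 88.0% in H3G34R.

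The reference table gave symbols to 13 of the 87 genes. The peroxin gene pex24 (NCU06637), for peroxisome formation, had 8.39 and 9.16 antisense CPM in set-2 H3G34R, 13.1 and 13.3 CPM in set-2 ash1(Y888F), and 1.17 and 2.14 CPM in H3G34R. The peroxin gene pex3 (NCU06175) had 4.25 and 3.48 antisense CPM in set-2 H3G34R, 2.02 and 3.06 CPM in set-2 ash1(Y888F), and 0.637 and 0.102 CPM in H3G34R. The tryptophan synthesis gene trp-2 (NCU05129), for a subunit of anthranilate synthase, had 5.21 and 4.99 antisense CPM in set-2 H3G34R, 7.24 and 6.52 CPM in set-2 ash1(Y888F), and 0.319 and 1.02 CPM in H3G34R. In these libraries pex24 and trp-2 thus stood higher in set-2 ash1(Y888F) and pex3 higher in set-2 H3G34R. The direct antisense test, given below, called pex24 only under some settings. It did not call trp-2 (edgeR adjusted p = 0.0868) or pex3 (edgeR adjusted p = 0.478). The kinase gene cot-1 (NCU07296), needed for the growth of hyphal tips, had 3.29 and 3.02 antisense CPM in set-2 H3G34R, 2.97 and 4.26 CPM in set-2 ash1(Y888F), and 0.637 and 0.509 CPM in H3G34R. The DNA repair gene uvs-2 (NCU05210) had 3.40 and 5.45 antisense CPM in set-2 H3G34R, 4.63 and 4.79 CPM in set-2 ash1(Y888F), and 0.319 and 0.407 CPM in H3G34R. In cot-1 antisense reads stayed at 0.897% to 1.77% of the gene's reads in the libraries labelled set-2, and in uvs-2 they were 23.5% to 39.5%. The other symbols were stk-27, nkin-2, nic-8, gh38-1 (a glycoside hydrolase), ada-4 (a transcription factor), pmg, stk-28 and mbp3.

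Sense reads were compared with edgeR over 8561 genes with Benjamini-Hochberg adjustment and a threshold of 0.05 on the adjusted p. Of the 87 genes, 23 rose and 30 fell in set-2 H3G34R over H3G34R, in all 60.9% of them, against 61.7% of all tested genes (30.7% higher and 31.1% lower). In set-2 ash1(Y888F) over H3G34R 21 rose and 21 fell, in all 48.3%, against 51.8% of all tested genes (26.3% higher and 25.5% lower). These shares lie near those of all genes and are no result about the 87 genes. The median sense log2 difference was -0.16 and -0.06 over the 87 genes, and -0.01 and -0.00136 over all tested genes, for set-2 H3G34R over H3G34R and set-2 ash1(Y888F) over H3G34R. The H3G34R libraries are shared by both comparisons. In both of them 15 of the 87 genes rose and 17 fell, against 18.4% and 18.5% of all tested genes, 24 passed the test in neither, and none moved in opposite directions. Antisense reads that were higher in the genotypes labelled set-2 thus stood beside sense reads of either direction. Without H3G34R replicate 1 the genes that fell in set-2 ash1(Y888F) numbered 8, and without H3G34R replicate 2 they numbered 11, in place of 21. The numbers of all tested genes that fell in that comparison also dropped, to 1363 and 1441 in place of 2186.

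**Figure D3:**
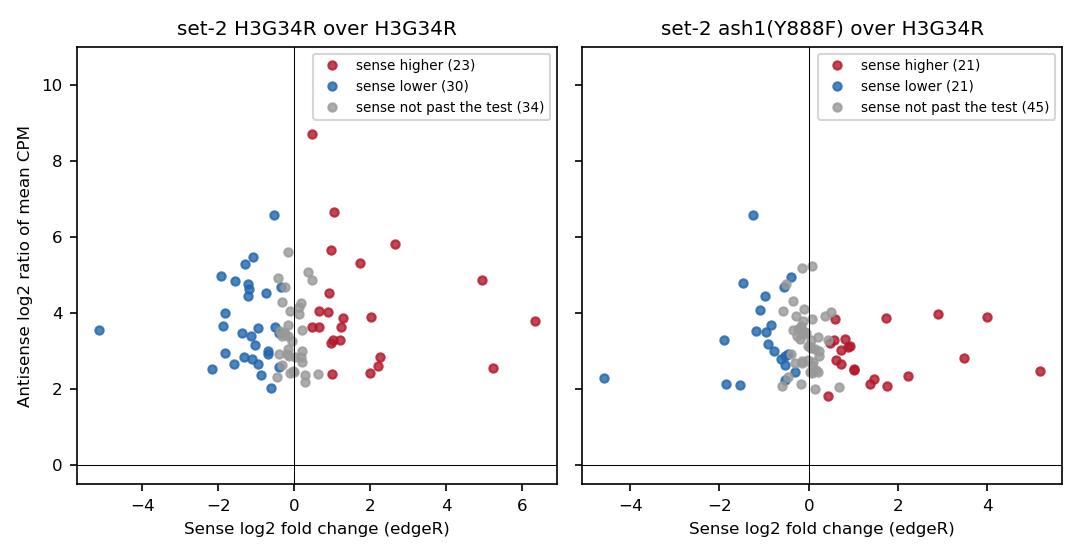
Antisense log2 ratio of mean CPM against the sense log2 fold change for the 87 genes, set-2 H3G34R over H3G34R at left and set-2 ash1(Y888F) over H3G34R at right, with the H3G34R antisense mean set to no less than 3 reads a library and colours for the sense call. All points lie above 0 on the vertical axis because the rule chose them so, while 23 and 30 genes at left and 21 and 21 at right lie to the right and to the left of 0 with a sense difference past the test.

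Sense reads of NCU02929 came to 18.7 and 23.9 CPM in set-2 H3G34R and 20.1 and 14.6 CPM in set-2 ash1(Y888F), against 0.956 and 0.203 CPM in H3G34R. They rose by 5.24 ± 0.46 on the log2 scale (SE) in set-2 H3G34R, with an edgeR adjusted p of 0.0002, and by 5.18 ± 0.47 in set-2 ash1(Y888F), with an edgeR adjusted p of 0.000297. Both strands of this gene were thus higher in the genotypes labelled set-2. NCU08447 had 23.2 and 28.2 sense CPM in set-2 H3G34R, 2.02 and 3.99 CPM in set-2 ash1(Y888F), and 0.319 and 0.305 CPM in H3G34R, and NCU05043 had 7.33 and 15.2 CPM, 7.59 and 2.13 CPM, and 0.425 and 0.305 CPM in the same genotypes. NCU08447 rose by 6.35 ± 0.42 on the log2 scale (edgeR adjusted p = 8.41e-05) in set-2 H3G34R and by 3.48 ± 0.52 (edgeR adjusted p = 0.00206) in set-2 ash1(Y888F). NCU05043 rose by 4.95 ± 0.83 (edgeR adjusted p = 0.00232) and 4.001 ± 0.90 (edgeR adjusted p = 0.0101) in the same comparisons, and the second lost its call without either H3G34R library, with an edgeR adjusted p of 0.0569 and 0.062. Of the genes that rose in both comparisons, NCU04996 had 90.2 and 88.3 sense CPM in set-2 H3G34R, 69.7 and 110.9 CPM in set-2 ash1(Y888F), and 16.5 and 13.0 CPM in H3G34R. NCU02455 had 243 and 226 sense CPM in set-2 H3G34R, 194 and 192 CPM in set-2 ash1(Y888F), and 57.9 and 43.4 CPM in H3G34R. In neither gene did the genotypes labelled set-2 overlap with H3G34R. NCU04996 rose by 2.65 ± 0.23 and 2.90 ± 0.23 on the log2 scale and NCU02455 by 2.27 ± 0.15 and 2.22 ± 0.15, with an edgeR adjusted p of at most 0.000204.

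NCU00142 had 20.2 and 19.3 sense CPM in set-2 H3G34R, 21.5 and 18.6 CPM in set-2 ash1(Y888F), and 90.5 and 91.7 CPM in H3G34R. It fell by 2.15 ± 0.13 on the log2 scale (edgeR adjusted p = 6.96e-05) in set-2 H3G34R, and its log2 difference in set-2 ash1(Y888F) was -1.89 ± 0.13 (edgeR adjusted p = 0.000124). The other genes that fell most in both comparisons had few sense reads. NCU08594 had 10.9 and 8.35 sense CPM in set-2 H3G34R, 9.26 and 4.92 CPM in set-2 ash1(Y888F), and 30.1 and 18.9 CPM in H3G34R. The transcription factor gene ada-4 (NCU03320) had 2.44 and 2.32 sense CPM in set-2 H3G34R, 2.49 and 0.798 CPM in set-2 ash1(Y888F), and 6.59 and 8.24 CPM in H3G34R. The log2 differences in set-2 H3G34R and in set-2 ash1(Y888F) were -1.28 ± 0.34 and -1.48 ± 0.35 for NCU08594 and -1.58 ± 0.42 and -1.85 ± 0.45 for ada-4, with an edgeR adjusted p between 0.0126 and 0.0152. In set-2 H3G34R the call of NCU08594 was lost without H3G34R replicate 1 (edgeR adjusted p = 0.0998) or without either set-2 H3G34R library (0.056 and 0.106), and in set-2 ash1(Y888F) without H3G34R replicate 1 (0.0787). For ada-4 it was lost in set-2 H3G34R without H3G34R replicate 2 (edgeR adjusted p = 0.0856) or either set-2 H3G34R library (0.08 and 0.0849), and in set-2 ash1(Y888F) without H3G34R replicate 2 (0.0743).

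NCU02488 had 0.744 and 1.04 sense CPM in set-2 H3G34R, 1.42 and 0.798 CPM in set-2 ash1(Y888F), and 3.93 and 2.65 CPM in H3G34R, and NCU01505 had 1.06 and 0.580 CPM, 0.119 and 0 CPM, and 2.12 and 2.24 CPM in the same genotypes. Both genes fell in both comparisons. The edgeR adjusted p was 0.0103 in set-2 H3G34R and 0.0475 in set-2 ash1(Y888F) for NCU02488, and 0.0433 and 0.00388 for NCU01505. For NCU02488 the adjusted p in set-2 H3G34R was 0.0712 without H3G34R replicate 1 and 0.0734 without set-2 H3G34R replicate 1, and in set-2 ash1(Y888F) it was 0.0753 to 0.227 under 5 of the 6 omissions of a library. For NCU01505 in set-2 H3G34R it was 0.0719 to 0.206 without either H3G34R or either set-2 H3G34R library. DESeq2 called neither NCU01505 in set-2 H3G34R (adjusted p = 0.199) nor NCU02488 in set-2 ash1(Y888F) (adjusted p = 0.137). These calls rest on few reads and on single libraries.

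Of the 13 genes with a symbol, 3 rose and 7 fell in sense in set-2 H3G34R over H3G34R, and 2 rose and 4 fell in set-2 ash1(Y888F) over H3G34R. Of all tested genes 30.7% rose and 31.1% fell in the first comparison and 26.3% and 25.5% in the second, and 13 genes are too few to set against those shares. The gene pmg (NCU03509) had 4.78 and 5.10 sense CPM in set-2 H3G34R, 153 and 40.8 CPM in set-2 ash1(Y888F), and 194 and 168 CPM in H3G34R. Its antisense reads came to 14.8 and 13.6 CPM in set-2 H3G34R, 4.63 and 5.59 CPM in set-2 ash1(Y888F), and 1.38 and 1.02 CPM in H3G34R. Sense reads of pmg fell by 5.13 ± 0.66 on the log2 scale in set-2 H3G34R over H3G34R (edgeR adjusted p = 0.000781), where antisense reads outnumbered them, and the set-2 ash1(Y888F) libraries differed from each other. The kinase genes stk-28 and stk-27 (NCU04259) fell by 1.07 ± 0.13 (edgeR adjusted p = 0.000623) and 1.04 ± 0.13 (edgeR adjusted p = 0.000707) in set-2 H3G34R over H3G34R. Sense reads of stk-28 came to 48.1 and 52.3 CPM in set-2 H3G34R, 49.1 and 41.4 CPM in set-2 ash1(Y888F), and 114 and 105 CPM in H3G34R, and those of stk-27 to 22.2 and 20.3 CPM, 29.8 and 32.9 CPM, and 45.5 and 45.1 CPM in the same genotypes. For stk-28 the log2 difference in set-2 ash1(Y888F) was -0.98 ± 0.13, with an edgeR adjusted p of 0.00123. The genes trp-2 and pex3 also fell in set-2 H3G34R, by 0.68 ± 0.10 (edgeR adjusted p = 0.00115) and 1.13 ± 0.19 (edgeR adjusted p = 0.00213).

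The genes gh38-1, pex24 and nic-8 rose in set-2 H3G34R over H3G34R. The gene gh38-1 (NCU07404) had 89.3 and 96.9 sense CPM in set-2 H3G34R, 57.8 and 57.2 CPM in set-2 ash1(Y888F), and 41.7 and 37.8 CPM in H3G34R. It rose by 1.28 ± 0.11 on the log2 scale in set-2 H3G34R (edgeR adjusted p = 0.000179) and by 0.82 ± 0.11 in set-2 ash1(Y888F) (edgeR adjusted p = 0.00128). The gene pex24 rose by 0.99 ± 0.17 (edgeR adjusted p = 0.00226) and nic-8 (NCU00713) by 0.92 ± 0.19 (edgeR adjusted p = 0.00515) in set-2 H3G34R. Sense reads of pex24 came to 57.9 and 60.8 CPM in set-2 H3G34R, 25.5 and 33.8 CPM in set-2 ash1(Y888F), and 29.0 and 33.0 CPM in H3G34R, so that those of set-2 ash1(Y888F) and H3G34R overlapped. Those of cot-1 came to 205 and 201 CPM in set-2 H3G34R, 328 and 236 CPM in set-2 ash1(Y888F), and 210 and 208 CPM in H3G34R.

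Counting both strands together, as an unstranded count does, moved the values of these genes. In set-2 H3G34R over H3G34R 32 of the 87 genes rose and 20 fell on both strands together, against 23 and 30 on the sense strand. Of all 8645 genes tested on both strands together, 30.2% rose and 30.6% fell. The call was the same on both counts in 70 genes, or 80.5%, against 96.3% of the 6238 genes that could have met the rule and were tested on both. In set-2 ash1(Y888F) over H3G34R 31 rose and 12 fell on both strands together, against 21 and 21 on the sense strand, where 25.9% and 25.2% of all tested genes rose and fell on both strands together. The call was the same in 69 genes, or 79.3%, against 96.5%. Since the rule chose genes with more antisense reads in the genotypes labelled set-2, the direction of this shift is set by the rule, and the counts give its size. NCU02488 had a log2 difference of 0.87 (edgeR adjusted p = 0.033) in set-2 H3G34R and 3.50 (edgeR adjusted p = 0.000142) in set-2 ash1(Y888F) on both strands together, where its sense reads fell. NCU01505 likewise had 1.03 (edgeR adjusted p = 0.0125) in set-2 H3G34R. The gene mbp3 had a sense difference of 0.37 ± 0.19 (edgeR adjusted p = 0.127) and 0.43 ± 0.19 (edgeR adjusted p = 0.096) in set-2 H3G34R and set-2 ash1(Y888F), and 2.43 (edgeR adjusted p = 6.31e-05) and 1.404 (edgeR adjusted p = 0.000541) on both strands together. For NCU08764 the sense difference was 0.62 ± 0.42 (edgeR adjusted p = 0.234) and 0.68 ± 0.44 (edgeR adjusted p = 0.227), and on both strands together 2.28 (edgeR adjusted p = 0.000592) and 2.19 (edgeR adjusted p = 0.000999).

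**Figure D4:**
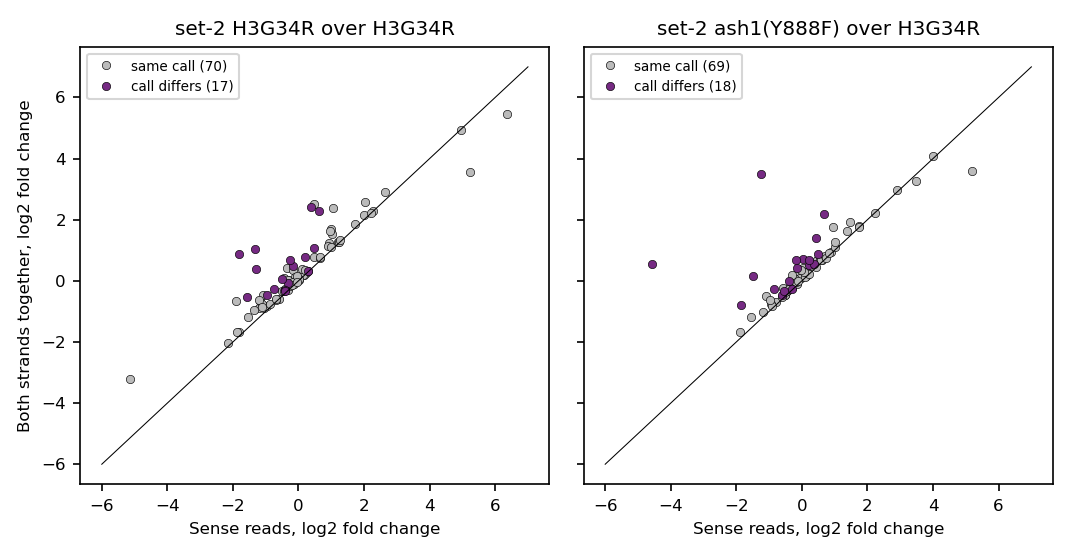
Log2 fold change on both strands together against that on the sense strand for the 87 genes, set-2 H3G34R over H3G34R at left and set-2 ash1(Y888F) over H3G34R at right, with the line of equal values. The call differs in 17 genes at left and 18 at right, and 83 and 85 of the 87 points lie above the line.

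The authors' deposited tables, which compare each genotype with wild type, follow the count on both strands together. A mutant mean was derived per gene from the mean and fold change in the authors' deposited table, leaving out low means and extreme fold changes. It was set against the gene's mean share of library reads, centred on the median over all genes used. For 83 of the 87 genes in set-2 H3G34R the median absolute log2 difference was 0.00184 with both strands together. With sense reads alone it was 0.245. The same values were 0.00752 and 0.156 for 79 genes in set-2 ash1(Y888F), and 0.00221 and 0.00549 for 77 genes in H3G34R. Over all genes used, both strands together gave 0.002, 0.00682 and 0.00183 in the same order. Sense reads alone gave 0.00956, 0.0166 and 0.00708. For set-2 H3G34R, 41 of the 87 genes were higher and 17 lower than wild type in the authors' deposited table at an adjusted p under 0.05, where 24.9% and 26.4% of genes with an adjusted p were. In the authors' deposited tables for set-2 ash1(Y888F) and H3G34R, 9 and 35 of the 87 genes were higher and 2 and 30 lower than wild type, where 10.8% and 33.6% of genes were higher and 6.42% and 30.9% lower. The rule chose the 87 genes by antisense reads that these tables count. Nothing is therefore read from how the numbers of the 87 genes stand to the shares of all genes.

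Applying the antisense share of the genotype to the fold change in the authors' deposited table gives antisense reads alone relative to all wild-type reads of a gene. Antisense reads alone exceeded all wild-type reads in 9 of the 87 genes in set-2 H3G34R and 7 in set-2 ash1(Y888F), where 3.10% and 3.25% of the 7286 genes did, and in 1 gene in H3G34R, where 4.45% did. The rule chose genes with many antisense reads in the genotypes labelled set-2 and few in H3G34R, so nothing is read from how these counts stand to the shares of the 7286 genes. In both genotypes labelled set-2 this held for 5 genes, NCU08764, NCU05043, NCU01505, mbp3 and NCU02929, where 1.29% of the 7286 genes did. For NCU08764 antisense reads alone were 5.54 times all wild-type reads in set-2 H3G34R and 6.43 times in set-2 ash1(Y888F), from the fold changes in the authors' deposited tables. The same values from the authors' deposited tables were 3.75 and 1.402 for mbp3 and 3.05 and 3.62 for NCU01505. At the lower 95% limit of the fold change in the authors' deposited tables, 3 of the 5 genes remained in both genotypes labelled set-2. They were NCU08764, NCU05043 and NCU01505, while mbp3 and NCU02929 did not remain in both. Of the 41 genes higher than wild type in the authors' deposited table for set-2 H3G34R, 7 had sense reads at or under all wild-type reads, namely NCU08764, mbp3, NCU01505, stk-28, pmg, NCU07715 and NCU11212. In set-2 ash1(Y888F) this held for NCU08764 and NCU01505 among 9 genes higher in the authors' deposited table, and in H3G34R for none of 35. The rule favours such genes in the genotypes labelled set-2 and not in H3G34R. No share over all genes was taken, so nothing is read from the difference between the genotypes.

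The genotypes labelled set-2 were then compared with each other in antisense reads. The rule used these same 4 values, alike for both genotypes and not their difference, and it left out genes with under 2 CPM in either genotype. A gene with antisense reads mainly in 1 of the genotypes could thus seldom meet it, and the counts and medians of the larger sets below, which hold such genes, stand beside those of the 87 genes as description only. With edgeR over 4068 genes, scaled by the sense reads of each library, 16 of the 87 genes were higher in set-2 H3G34R than in set-2 ash1(Y888F) and 5 lower, against 9.91% and 27.9% of all tested genes, and 66 did not pass the test. Of the 2263 tested genes that could have met the rule, 10.9% were higher and 30.7% lower. The median antisense log2 difference was 0.15 over the 87 genes, -0.55 over those 2263 genes and -0.39 over all tested genes. Scaled by the antisense reads themselves, 29 of the 87 genes were higher and 2 lower, against 17.2% and 21.2% of the 2263 genes. The medians were then 0.51, -0.19 and -0.03 for the same sets, and higher calls made up 50.1% of all calls in place of 26.2%. Both set-2 H3G34R values lay above both set-2 ash1(Y888F) values in 47 of the 87 genes and below them in 12, where 17.2% and 28.6% of the 7286 genes did so. The means differed by less than 2-fold in 69 of the 87 genes.

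**Figure D5:**
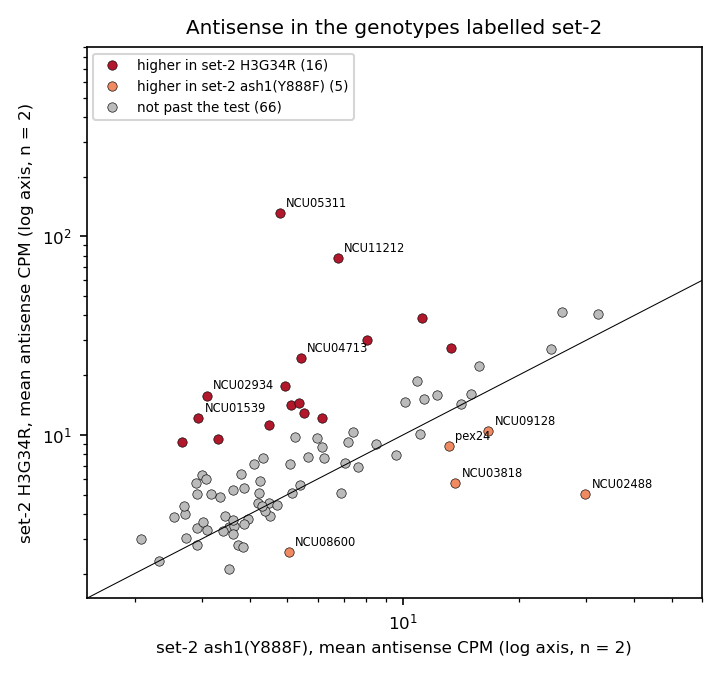
Mean antisense CPM in set-2 H3G34R against that in set-2 ash1(Y888F) for the 87 genes (log axes, 2 libraries per mean, line of equal values), coloured by the call of edgeR. The 16 genes called higher in set-2 H3G34R lie above the line, with NCU05311 and NCU11212 farthest from it, and the 5 called higher in set-2 ash1(Y888F) lie below it.

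NCU05311 was higher in set-2 H3G34R by 4.53 ± 0.25 on the log2 scale (edgeR adjusted p = 4.53e-12). Its sense reads came to 38.0 and 43.7 CPM in set-2 H3G34R, 32.2 and 32.3 CPM in set-2 ash1(Y888F), and 28.6 and 32.8 CPM in H3G34R, so the sense strand differed far less than the antisense strand. NCU11212 had 85.0 and 70.2 antisense CPM in set-2 H3G34R, 4.87 and 8.64 CPM in set-2 ash1(Y888F), and 0.212 and 1.32 CPM in H3G34R. It was higher in set-2 H3G34R by 3.29 ± 0.30 (edgeR adjusted p = 1.68e-08), and its genotypes did not overlap. NCU02934 was higher by 2.12 ± 0.27 (edgeR adjusted p = 1.75e-06). NCU04713 had 24.8 and 24.01 antisense CPM in set-2 H3G34R, 4.87 and 5.98 CPM in set-2 ash1(Y888F), and 1.17 and 0.712 CPM in H3G34R, a difference of 1.93 ± 0.24 (edgeR adjusted p = 1.59e-06). NCU01539 had 12.4 and 11.8 antisense CPM in set-2 H3G34R, 3.20 and 2.66 CPM in set-2 ash1(Y888F), and 0.744 and 0.509 CPM in H3G34R, a difference of 1.80 ± 0.28 (edgeR adjusted p = 3.30e-05). All 5 genes were called higher in set-2 H3G34R under both scalings.

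In the other direction NCU02488 had a log2 difference of -2.81 ± 0.26 (edgeR adjusted p = 1.68e-08), and it kept the call under both scalings. NCU03818 had 7.12 and 4.29 antisense CPM in set-2 H3G34R, 17.9 and 9.44 CPM in set-2 ash1(Y888F), and 0.212 and 0.509 CPM in H3G34R, a difference of -1.50 ± 0.31 (edgeR adjusted p = 0.00052) that DESeq2 did not call (adjusted p = 0.122). NCU08600 had 2.23 and 2.90 antisense CPM in set-2 H3G34R, 4.75 and 5.32 CPM in set-2 ash1(Y888F), and 0.212 and 0.509 CPM in H3G34R. NCU09128 had 9.03 and 11.8 antisense CPM in set-2 H3G34R, 16.1 and 17.2 CPM in set-2 ash1(Y888F), and 1.28 and 0.916 CPM in H3G34R. The differences were -1.21 ± 0.36 (edgeR adjusted p = 0.0108) for NCU08600, -0.91 ± 0.23 (edgeR adjusted p = 0.00363) for NCU09128 and -0.82 ± 0.25 (edgeR adjusted p = 0.0114) for pex24. These 3 genes lost the call when antisense reads set the scale, with an edgeR adjusted p of 0.0694, 0.0746 and 0.147, and DESeq2 did not call them (adjusted p = 0.445, 0.464 and 0.6). They also lost it without set-2 H3G34R replicate 1, with an edgeR adjusted p of 0.0928, 0.0873 and 0.107, and NCU08600 without set-2 ash1(Y888F) replicate 2 (edgeR adjusted p = 0.0507) and pex24 without set-2 H3G34R replicate 2 (edgeR adjusted p = 0.0613).

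In sense reads 14 of the 87 genes were higher in set-2 H3G34R than in set-2 ash1(Y888F) and 17 lower, in all 35.6%, against 38.1% of all tested genes (18.2% higher and 19.9% lower). Without set-2 H3G34R replicate 1 these numbers were 7 and 10, and without set-2 H3G34R replicate 2 they were 6 and 10. Both strands differed in 6 of the 87 genes, and no share over all genes was taken, so nothing is read from that number. In NCU01539, NCU02934 and NCU11212 the strands moved the same way, and in pmg, NCU04713 and pex24 the opposite way. Sense reads of NCU11212 came to 51.8 and 43.96 CPM in set-2 H3G34R, 18.5 and 20.2 CPM in set-2 ash1(Y888F), and 22.3 and 25.6 CPM in H3G34R. Those of NCU04713 came to 24.1 and 24.5 CPM in set-2 H3G34R, 48.2 and 50.9 CPM in set-2 ash1(Y888F), and 30.3 and 29.6 CPM in H3G34R. Sense reads of NCU11212 were thus highest, and those of NCU04713 lowest, in set-2 H3G34R, where antisense reads of both were highest.

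Places next to other genes were read from the gene order of the NC12 assembly in the reference table. None of the 87 genes was next to another of them, and 1.98% of the 7285 genes placed were next to one. That share is too small for 87 genes to be set against it. An adjacent gene rose in sense in both comparisons with H3G34R, which share those libraries with the rule, beside 41 of the 87 genes, or 47.1%, against 28.4% of the 7285 genes placed. With a rise of at least 2-fold in both comparisons this held for 30 genes, or 34.5%, against 16.1%. An adjacent gene fell in both beside 16 of the 87 genes, or 18.4%, against 30.2%. Orientation and distance of the neighbours were not used here, and a read from a neighbour that runs into one of the 87 genes was not told apart from one that starts in it.

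NCU02932, next to NCU02934, had 424 and 394 sense CPM in set-2 H3G34R, 149 and 151 CPM in set-2 ash1(Y888F), and 0.212 and 0.610 CPM in H3G34R. It rose by 9.94 ± 0.26 on the log2 scale (edgeR adjusted p = 7.11e-06) in set-2 H3G34R and by 8.73 ± 0.26 (edgeR adjusted p = 7.00e-06) in set-2 ash1(Y888F). NCU07474, next to NCU07473, had 160 and 165 sense CPM in set-2 H3G34R, 61.4 and 175 CPM in set-2 ash1(Y888F), and 5.10 and 6.41 CPM in H3G34R, a rise of 4.87 ± 0.52 (edgeR adjusted p = 0.000374) and 4.64 ± 0.51 (edgeR adjusted p = 0.000622). NCU09024, next to NCU09025, had 166 and 191 sense CPM in set-2 H3G34R, 172 and 237 CPM in set-2 ash1(Y888F), and 9.35 and 13.3 CPM in H3G34R, a rise of 4.02 ± 0.25 (edgeR adjusted p = 6.54e-05) and 4.45 ± 0.25 (edgeR adjusted p = 5.58e-05). NCU00732, next to NCU00730, had 210 and 164 sense CPM in set-2 H3G34R, 62.7 and 387 CPM in set-2 ash1(Y888F), and 0.637 and 2.03 CPM in H3G34R, a rise of 7.15 ± 1.06 (edgeR adjusted p = 0.00134) and 7.64 ± 1.07 (edgeR adjusted p = 0.00155). NCU11211, next to NCU11212, had 13.0 and 10.6 sense CPM in set-2 H3G34R, 5.22 and 3.59 CPM in set-2 ash1(Y888F), and 1.06 and 0.814 CPM in H3G34R, a rise of 3.68 ± 0.33 (edgeR adjusted p = 0.000202) and 2.52 ± 0.36 (edgeR adjusted p = 0.00168). These 5 neighbours were chosen after their values were seen. Of the 5 genes named above as higher in antisense in set-2 H3G34R than in set-2 ash1(Y888F), NCU11212 and NCU02934 lay beside such a gene. NCU05311, with the largest difference, NCU04713 and NCU01539 did not lie beside a gene that rose in both comparisons. A part of the neighbours in the antisense reads was not tested. Beside NCU05311 lay NCU05312, with 14.7 and 16.1 sense CPM in set-2 H3G34R, 17.3 and 17.0 CPM in set-2 ash1(Y888F), and 24.2 and 21.1 CPM in H3G34R, and NCU05309, with 157 and 178 CPM, 193 and 284 CPM, and 280 and 203 CPM in the same genotypes. Neither was higher in both set-2 H3G34R libraries than in both H3G34R libraries.

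None of the genes of a list on H3K36 methylation and chromatin was among the 87. Of its 10 genes found by symbol of 19 listed, 1 rose and 6 fell in sense in set-2 H3G34R over H3G34R, and 1 rose and 6 fell in set-2 ash1(Y888F) over H3G34R. The gene set-3 (NCU01932), which encodes ASH1, had 0.531 and 0.696 antisense CPM in set-2 H3G34R, 7.36 and 9.04 CPM in set-2 ash1(Y888F), and 1.38 and 2.44 CPM in H3G34R. Its antisense reads were thus highest in the genotype with the changed ASH1 and lowest in set-2 H3G34R. The histone H3 gene hH3 (NCU01635) had 3.51 and 4.87 antisense CPM in set-2 H3G34R, 19.5 and 15.7 CPM in set-2 ash1(Y888F), and 14.2 and 13.5 CPM in H3G34R. Of 9 genes of RNA interference found, none was among the 87, and 2 rose and 4 fell in set-2 H3G34R and 2 rose and 5 fell in set-2 ash1(Y888F). Among all tested genes 30.7% rose and 31.1% fell in set-2 H3G34R over H3G34R. In set-2 ash1(Y888F) over H3G34R 26.3% rose and 25.5% fell. Both lists are too short to set against those shares.

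Markers of other cell states were counted in the same sense comparisons. In set-2 H3G34R over H3G34R 61.7% of all tested genes passed the test, and in set-2 ash1(Y888F) over H3G34R 51.8%. The marker lists are too short to set against those shares. Of 6 markers of conidia and aerial hyphae, 4 rose in sense and none fell in set-2 H3G34R over H3G34R, and none rose and 2 fell in set-2 ash1(Y888F) over H3G34R. Their summed sense reads came to 757 and 1478 CPM in set-2 H3G34R, 289 and 377 CPM in set-2 ash1(Y888F), and 351 and 409 CPM in H3G34R. The hydrophobin gene eas (NCU08457) had 173 and 680 sense CPM in set-2 H3G34R, 72.0 and 22.3 CPM in set-2 ash1(Y888F), and 7.97 and 20.9 CPM in H3G34R. It thus held 680 of the 1478 CPM in set-2 H3G34R replicate 2. The markers con-6 and csp-1 did not rise in set-2 H3G34R. There con-6 had 94.1 and 51.5 CPM against 70.6 and 94.1 in H3G34R, and csp-1 had 109 and 143 CPM against 162 and 158. The list summed highest in the set-2 H3G34R libraries, where antisense reads of the 87 genes were also highest, while in set-2 ash1(Y888F) the list summed to no more than the higher H3G34R value. In bulk RNA fewer cells of a type and less RNA per cell cannot be told apart, and the part of these cell states in the antisense values was not tested. Of 5 genes of sexual tissue 2 rose and 2 fell in set-2 H3G34R over H3G34R and 1 rose and 3 fell in set-2 ash1(Y888F) over H3G34R. They summed to 467 and 501 sense CPM in set-2 H3G34R, 144 and 233 CPM in set-2 ash1(Y888F), and 238 and 257 CPM in H3G34R. Of the growth genes crp-2 and chs-1, 1 rose in each comparison and none fell.

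The other 41 genes have no symbol and were named above at most for a neighbour (NCU00730, NCU07473 and NCU09025) or for having no antisense read in H3G34R (NCU01840). The lowest of their 4 antisense values in the libraries labelled set-2 ran from 2.09 to 6.78 CPM with a median of 3.33 CPM, and their higher H3G34R value reached 2.03 CPM. In sense reads 7 rose, 13 fell and 21 did not pass the test in set-2 H3G34R over H3G34R, with log2 differences from -1.91 to 1.73, and 7 rose, 10 fell and 24 did not pass in set-2 ash1(Y888F) over H3G34R, with log2 differences from -1.54 to 1.74. Between the genotypes labelled set-2, 5 of them were higher in antisense in set-2 H3G34R and none was lower, with log2 differences from -0.73 to 1.56. Of the described genes, NCU09485 was named only as lying next to the ratio of 3.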

How the data were processed

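For every library the authors deposited raw counts of reads per gene, without regard to strand and split by strand. STAR 2.6.0 is named in the submitters' processing notes, and the libraries were stranded per the labels' protocols. The build used for alignment is not given in the sources used here, nor is the annotation. Sense is the strand column with more reads in genes in every library, and antisense is its counterpart. Lines of unassigned reads, 15.0% to 22.9% of reads, were not used. The authors deposited 1 further table per genotype that sets it against wild type, and the submitters' processing notes name DESeq2 1.18.1. These tables lack column names, so the content was read from the values. From the authors they hold a mean normalised signal, a log2 fold change (mutant over wild type), a standard error, a Wald score, and both raw and adjusted p-value. No source says which strand the authors counted.

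Symbols and gene order came from RefSeq's table for the NC12 assembly, where 9729 of 9730 identifiers matched by locus tag. No coordinate of it is given, since the build of the files is not known, and no sequence was used here.

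Tests used edgeR 4.0.16 (quasi-likelihood, all 3 genotypes in 1 fit, TMM on sense reads, Benjamini-Hochberg adjustment over all tested genes) in R 4.3.3, checked on simulated data. DESeq2 1.42.0, other scalings and filters, the fit of 2 genotypes and the omission of each library were alternatives. Genes named are those with the 12 highest antisense values, the 12 highest ratios (only an H3G34R value of 0 replaced by 3 reads), those next to each threshold, those with a symbol, and the 5 with the largest calls in each direction for sense and for antisense between the genotypes labelled set-2. The 87 genes and the gene lists were chosen with earlier results of these data known. Counting error is large at these depths, where 3 reads equal 0.305 to 0.399 CPM. Antisense reads were counted per library with no molecular identifiers, so ratios of few reads carry more than counting error.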

Additional observations from a re-analysis of the deposited data

Results flagged for a closer look

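Antisense reads differed between the genotypes labelled set-2, by the direct test of set-2 H3G34R over set-2 ash1(Y888F), in 16 of the 87 genes upward and 5 downward. Of all tested genes 9.91% were higher and 27.9% lower. The rule used the same antisense values, so these shares stand beside the counts as description only. Among the genes named, the log2 difference was 4.53 for NCU05311, 3.29 for NCU11212, 2.12 for NCU02934, 1.93 for NCU04713 and 1.80 for NCU01539. In the other direction it was -2.81 for NCU02488, -1.50 for NCU03818, -1.21 for NCU08600, -0.91 for NCU09128 and -0.82 for pex24. DESeq2 did not call NCU03818, NCU08600, NCU09128 or pex24. All of these but NCU03818 also lost the call when antisense reads set the scale. With 2 libraries per genotype no group was large enough for a check of single libraries against the others of their group.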

How the results depend on the processing

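The number of genes that met the rule was 139 with a minimum of 1 CPM, 38 with 4 CPM, 126 with a ratio of 2, 47 with a ratio of 5, 151 without the condition on the strands, 105 with TMM-scaled library sizes, 84 and 71 with other library totals, and 93 to 115 without 1 library. Sense calls lower in set-2 ash1(Y888F) over H3G34R numbered 12 of the 87 genes on both strands together, and 8 to 26 without 1 library. Over all genes, omission of 1 library gave 1391 to 2301 higher and 1363 to 2264 lower calls in that comparison. In sense between the genotypes labelled set-2 it gave 6 to 15 and 10 to 19 of the 87 genes, and 618 to 1791 and 770 to 1975 of all genes. In antisense between them it gave 2 to 6 of the 87 genes lower, and 207 to 419 of all genes higher. Scaling on antisense reads gave 29 of the 87 genes higher and 2 lower, and 737 and 735 of all genes, and DESeq2 gave 1 of the 87 genes and 306 of all genes lower.

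On both strands together the sense falls turned positive for NCU02488, at 0.87 and 3.50, for NCU01505, at 1.03 and 0.53, and for NCU08594, at 0.39 and 0.17, in set-2 H3G34R and in set-2 ash1(Y888F). The values of NCU08594 (edgeR adjusted p = 0.228 and 0.629) did not pass the test. Nor did that of NCU01505 in set-2 ash1(Y888F) (edgeR adjusted p = 0.151). The direction of this shift is set by the rule. For the genes with antisense reads above all wild-type reads in the authors' deposited tables, the lower limit of the fold change left 3 in both genotypes and 4 in set-2 ash1(Y888F). Beside 35 to 42 of the 87 genes an adjacent gene rose in both comparisons when 1 library was left out, an alternative added after the data were seen, as was the 2-fold limit.

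Of the tests of single genes under alternatives, 534 kept direction and side of the threshold, 40 lost the call, 4 gained it and 6 turned. Orientation and distance of neighbours were planned and not run, since the table used has no strand. No paired analysis was possible because the genotypes share no replicate numbers, which only the set-2 H3G34R files carry. Depth limits single genes, as 2 libraries per genotype and a median of 6 H3G34R reads leave ratios uncertain.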
